A study of Mus musculus with 8 samples.

Results

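Interferon-stimulated genes were followed across 8 cultures of mouse bone marrow cells, to ask whether they move together from culture to culture and whether they differ between genotypes. The set was a list of 50 genes chosen by name, and a gene was measured where its symbol stood as the gene name of a probe. By that rule 48 genes were found on the array, with 70 probes, among 17447 features tested in all. Trim30 and Dtx3l had no probe of that name. RefSeq gives Trim30 as an older name of Trim30a, which was measured but not counted among the 48.

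The arrays came from 4 groups of mice of the strain C57BL/6, with 2 cultures in each group. Bob1 wild-type mice (Bob1+/+) and Bob1 knockout mice (Bob1-/-) formed a pair. BL6 wild-type mice, labelled C57BL/6Ncrl, stood beside miR-146a knockout mice (mir-146a-/-). Bob1 is the B cell coactivator encoded by Pou2af1, and miR-146a is a microRNA known to dampen inflammatory signalling. No agent other than the culture medium is named for any group. All mice were 10 weeks old. Femur marrow was cultured for 5 days in Iscove's medium with 10% FCS and IL-7, the cytokine that supports growth of B cell precursors, and RNA was measured on one-colour arrays. In every group replicate A was a female and replicate B a male culture, so sex and culture cannot be told apart. The cells were whole marrow cultures with no sort named in the labels, so other cell types may remain.

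Interferons are secreted proteins that bind receptors on the cell surface and act through Jak kinases, which for type I interferons are Jak1 and Tyk2. Type I interferons drive a complex that holds Stat2 and Irf9 to a DNA element called the interferon-stimulated response element (ISRE), while interferon gamma acts through the gamma-activated sequence (GAS). The genes so induced sense viral nucleic acid, block viral replication, load peptides on MHC class I and feed back on the pathway. Many are also transcribed at a low level without infection, under tonic interferon signalling.

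A level here is log2 of the processed probe intensity minus the 75th percentile of the same array, so 0 is the brightness of that percentile, and a difference of 1 is a 2-fold change. Levels of different genes come from different probes and are not compared. That percentile was 494 to 782 intensity units, and 60.5% to 66.1% of probes were well above background. Of the 48 genes, 47 were well above background on all 8 arrays, and Ifi205 was so on 6. The replicates of a group correlated at 0.988 to 0.993 over all features, while the Bob1 knockout arrays correlated at 0.97 to 0.979 with the other 6 arrays. Pou2af1 had levels of 6.40 and 6.56 in Bob1 wild-type A and B and 2.71 and 2.82 in Bob1 knockout A and B, with 6.41 to 6.72 on the other 4 arrays. Its level was thus low only on the arrays labelled as Bob1 knockout, although the signal there remained well above background. All 13 markers of pro-B and pre-B cells were well above background on all 8 arrays. Slide 1 held both Bob1 wild-type arrays, BL6 wild-type A and miR-146a knockout B, and slide 2 held both Bob1 knockout arrays, BL6 wild-type B and miR-146a knockout A.

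RefSeq promoter windows of 300 bases (GRCm38.p6, mostly upstream of an annotated start site) were at hand for 35 of the 48 genes. The ISRE core was searched as GAAA followed by any 2 bases and a further GAAA, and GAS as TTCNNNGAA, each on both strands, and matches may overlap. The ISRE core lay in 19 of the 35 genes (54.3%), against 3.99% of 27025 genes with a window. GAS lay in 9 of the 35 (25.7%), against 9.55%. The windows of 4 genes are shown because they carry the results below: Gbp2 and Gbp3 were lower in Bob1 knockout cells, and Isg15 and Ifit3 moved with the other genes from culture to culture. Capitals mark the ISRE matches, which read TTTC, 2 bases, TTTC where the match is on the other strand.
Gbp2, chr3:142620413-142620712, plus strand: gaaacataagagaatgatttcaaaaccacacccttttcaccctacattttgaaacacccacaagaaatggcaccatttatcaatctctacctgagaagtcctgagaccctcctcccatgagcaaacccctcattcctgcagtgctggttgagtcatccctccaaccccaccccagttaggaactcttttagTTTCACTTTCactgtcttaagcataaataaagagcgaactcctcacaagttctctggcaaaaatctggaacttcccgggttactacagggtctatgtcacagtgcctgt
Gbp3, chr3:142559794-142560093, plus strand: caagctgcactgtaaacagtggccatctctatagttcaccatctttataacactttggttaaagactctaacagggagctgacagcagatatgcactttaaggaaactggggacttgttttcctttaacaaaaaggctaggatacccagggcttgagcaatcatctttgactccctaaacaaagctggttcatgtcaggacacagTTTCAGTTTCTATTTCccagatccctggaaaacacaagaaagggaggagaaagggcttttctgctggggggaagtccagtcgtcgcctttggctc
Isg15, chr4:156200769-156201068, minus strand: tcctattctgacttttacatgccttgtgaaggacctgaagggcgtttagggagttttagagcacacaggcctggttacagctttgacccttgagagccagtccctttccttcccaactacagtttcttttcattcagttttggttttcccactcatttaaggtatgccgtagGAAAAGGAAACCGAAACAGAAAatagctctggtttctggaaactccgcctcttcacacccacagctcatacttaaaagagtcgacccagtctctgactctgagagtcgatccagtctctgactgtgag
Ifit3, chr19:34583279-34583578, plus strand: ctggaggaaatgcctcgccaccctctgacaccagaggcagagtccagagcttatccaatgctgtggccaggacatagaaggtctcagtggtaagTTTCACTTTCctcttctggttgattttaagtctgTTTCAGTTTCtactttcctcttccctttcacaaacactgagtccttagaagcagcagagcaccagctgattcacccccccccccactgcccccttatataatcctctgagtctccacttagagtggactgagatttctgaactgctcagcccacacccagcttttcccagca
Gbp2 held 1 match, Gbp3 and Ifit3 held 2 each, and Isg15 held 3 that overlap. A second annotated start of Gbp3 had no match in its window, nor did the window of Samd9l. A match describes the letters only.

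Most of the genes moved together across the cultures. Each gene's level was set against its own mean over the 8 arrays. On miR-146a knockout A all 48 genes were above their mean, with a median deviation of 0.48, and on miR-146a knockout B 46 were above, with a median of 0.30. Bob1 wild-type A had 42 above and a median of 0.33, and BL6 wild-type A had 40 above and a median of 0.23. Bob1 wild-type B was near the middle, with 15 above and a median of -0.05. The remaining 3 arrays were low. BL6 wild-type B had 9 genes above and a median of -0.39, Bob1 knockout A had 11 and -0.28, and Bob1 knockout B had 1 and -0.71. Over all features the array medians ran only from -0.05 to 0.10. Bob1 knockout B was the lowest array for 34 of the 48 genes, against 16.8% of all features, and miR-146a knockout A was the highest for 21, against 7.65%. The order of the arrays did not follow genotype alone, since a wild-type culture, BL6 wild-type B, lay among the low ones.

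**Figure D1:**
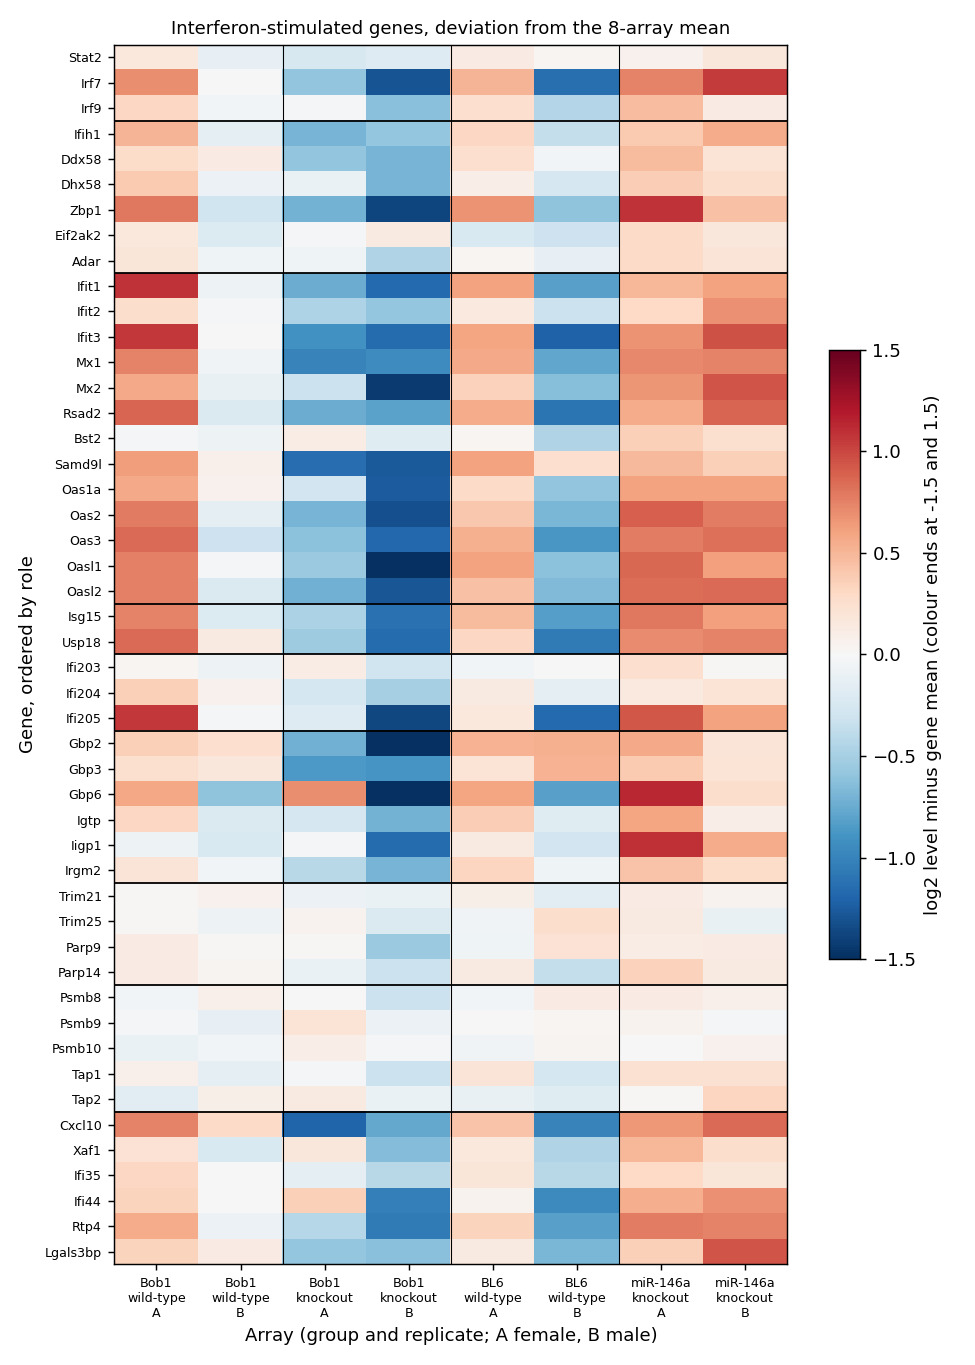
Deviation of the log2 level of each of 48 interferon-stimulated genes (rows, ordered by role, with lines between roles) from its mean over the 8 arrays (columns, by group and replicate). Red is above and blue below the mean. Antiviral effectors and the ISG15 system show the widest swings, while the antigen processing genes stay near white.

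**Figure D2:**
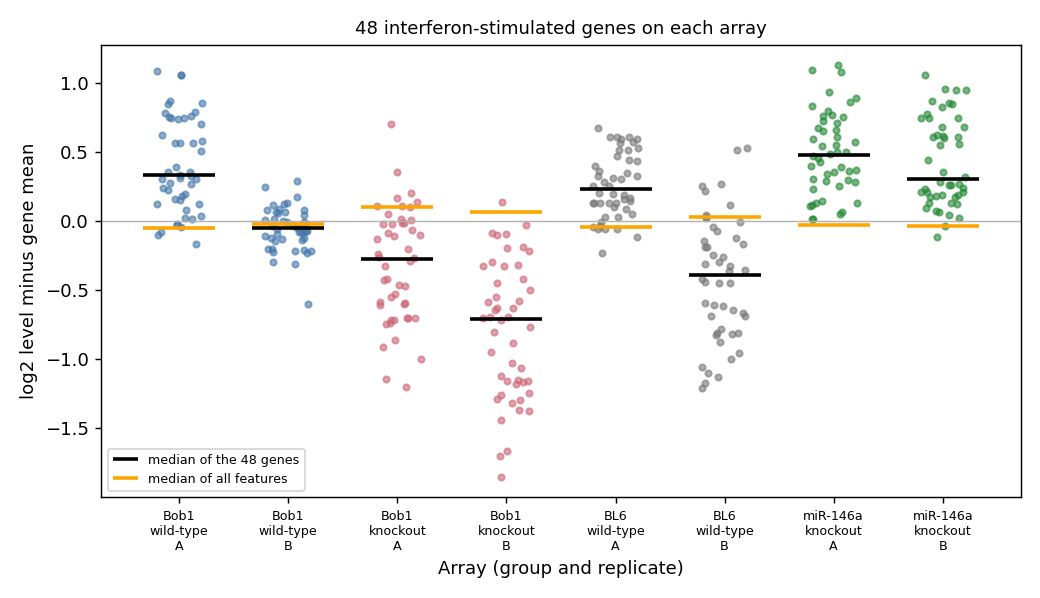
Each point is 1 of 48 genes on 1 array, as log2 level minus the gene's 8-array mean. Black bars are medians of the 48 genes, from -0.71 on Bob1 knockout B to 0.48 on miR-146a knockout A, and orange bars are medians of all features, from -0.05 to 0.10.

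The likeness of the genes was described by correlating each with the mean of the other 47 over the 8 arrays, each gene centred on its own mean. The median correlation was 0.92, and 35 of the 48 exceeded 0.8, against a median of -0.30 and 5.95% over 0.8 for the other 17399 features. With the group means taken out, so that only the differences between the cultures of a group were left, the median was 0.88 and 31 exceeded 0.8, against 8.08% of other features. The points share 8 arrays, their scaling and their culture conditions, and in the latter case there are only 4 independent differences. Oas2, an oligoadenylate synthetase that activates RNase L, was closest to the rest at 0.996, followed by Oasl2 at 0.993. Psmb10 at -0.22, Psmb9 at -0.02 and Trim25 at 0.11 did not move with them. Gbp3 followed the rest over all arrays, at 0.64, but not within groups, at -0.46.

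Within a genotype, the female culture was mostly the higher. In Bob1 wild-type, 44 of 48 genes were higher in A than in B, with a median difference of 0.35, or 1.28-fold, where 46.3% of all features were higher in A. In Bob1 knockout 43 of 48 were higher in A, with a median of 0.36, against 53.4% of features. In BL6 wild-type 40 of 48 were higher in A, with a median of 0.58, or 1.49-fold, against 40.6% of features, and 17 genes differed by more than 1. In miR-146a knockout the cultures were close, with 28 of 48 higher in A and a median of 0.08, against 51% of features. In all 4 groups together, 20 genes were higher in A each time, or 41.7%, against 11.1% of all features. These 20 genes were Irf9, Ddx58, Dhx58, Zbp1, Adar, Bst2, Samd9l, Oas1a, Oas2, Oasl1, Isg15, Ifi205, Gbp6, Igtp, Iigp1, Irgm2, Parp14, Xaf1, Ifi35 and Rtp4.

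In a limma fit of the replicate letter with the group as a term, no gene of the 48 passed an adjusted p of 0.05 (Benjamini-Hochberg over all 17447 features), and 7 features (0.0401%) did, all higher in A. At an unadjusted p under 0.05, 24 of the 48 were higher in A (50%) and 0 lower, against 7.62% of all features higher. Of the 48 estimates 45 were above 0, and their median was 0.35. The largest was Gbp6, a guanylate-binding protein, at 1.5 ± 0.28 (SE; adjusted p = 0.193). Each slide held 2 A and 2 B cultures, balanced so that a slide term cannot change these estimates. A fit that also blocked on the slide gave the same median, 0.35, and is thus no check on the slide.

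**Figure D3:**
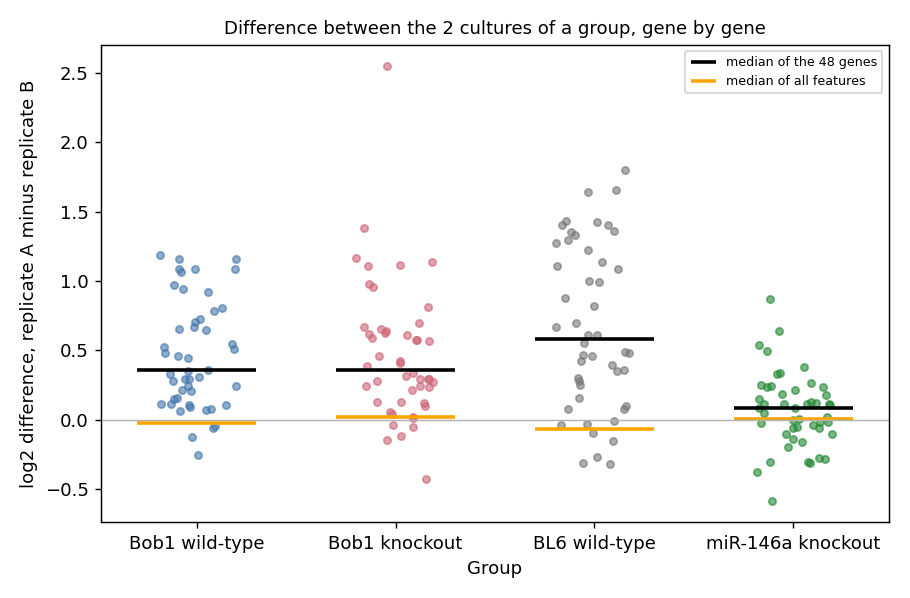
Difference in log2 level between the female (A) and the male (B) culture of each group, with 1 point per gene. Black bars are medians of the 48 genes (0.35, 0.36, 0.58 and 0.08 from left to right) and orange bars medians of all features.

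The regulators Irf7, Irf9 and Stat2 are themselves induced by interferon. Irf7, the factor that amplifies type I interferon production, had levels of -1.09 and -1.80 in Bob1 wild-type A and B, -2.39 and -3.09 in Bob1 knockout, -1.28 and -2.92 in BL6 wild-type, and -1.04 and -0.74 in miR-146a knockout. It was thus lowest on Bob1 knockout B and BL6 wild-type B, and the BL6 wild-type pair differed by 1.64. Irf9, the DNA-binding subunit of the type I complex, had 1.61 and 1.26, 1.28 and 0.67, 1.55 and 0.86, and 1.76 and 1.42 in the same order of arrays. Irf9 was higher in A in every group. Stat2, its partner, stayed between 1.41 and 1.82 on all 8 arrays. In Bob1 knockout against wild-type the estimates were -1.29 ± 0.55 (SE) for Irf7, -0.46 ± 0.31 for Irf9 and -0.23 ± 0.14 for Stat2, with adjusted p of 0.181, 0.346 and 0.291 in limma.

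Most of the 6 sensors of RNA and DNA followed the same arrays. Zbp1, a sensor of Z-form nucleic acid, had one of the widest ranges, 2.45, with levels of 1.12 and 0.04, -0.37 and -1.04, 1.01 and -0.27, and 1.42 and 0.78 in the same order. Every A culture was above its B culture for Zbp1. Ddx58, which encodes the RNA helicase RIG-I, had 0.11 and -0.05, -0.76 and -0.86, 0.09 and -0.21, and 0.30 and 0.04. For Ddx58 the cultures of a group were close, and only the Bob1 knockout arrays were low. Eif2ak2, the double-stranded RNA kinase PKR, stood apart from the group, at a correlation of 0.34 with the other genes.

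The 13 antiviral effectors, which act on viral RNA, proteins or budding, had the widest swings along with the ISG15 system. Their median deviation ran from 0.76 on Bob1 wild-type A and 0.74 on miR-146a knockout B to -0.67 on BL6 wild-type B and -1.18 on Bob1 knockout B. In Bob1 wild-type and in BL6 wild-type all 13 were higher in A than in B, with median differences of 0.80 and 1.11, while in miR-146a knockout 5 of 13 were, with a median of -0.02. Ifit3, which helps bind viral RNA, had levels of 0.82 and -0.25, -1.15 and -1.39, 0.35 and -1.45, and 0.43 and 0.71. Its difference of 1.80 between the BL6 wild-type cultures was the largest in that group, ahead of Rsad2 (viperin) at 1.66 and Irf7 at 1.64. Ifit1 and Oas3 differed by 1.16 each between the Bob1 wild-type cultures. These wild-type differences were of the size of the estimated knockout effects. Oasl1 had levels of -0.28 and -1.06, -1.59 and -2.70, -0.43 and -1.65, and -0.18 and -0.42. Mx2, a dynamin-like GTPase, had -0.28 and -0.95, -1.17 and -2.28, -0.49 and -1.49, and -0.19 and 0.10. In both genes Bob1 knockout B was lowest and BL6 wild-type B lay below Bob1 wild-type B.

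Isg15, a ubiquitin-like protein, and Usp18, the protease that removes it, moved alike. Isg15 had levels of 0.90 and -0.05, -0.31 and -0.96, 0.63 and -0.67, and 0.95 and 0.77. Usp18 had -0.22 and -0.94, -1.60 and -2.23, -0.77 and -2.13, and -0.36 and -0.33. In both, BL6 wild-type B was as low as the Bob1 knockout range, and the 2 groups overlapped.

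The PYHIN family encodes DNA-binding proteins with a pyrin domain. Ifi205 had levels of -3.70 and -4.79, -4.96 and -6.12, -4.60 and -5.93, and -3.82 and -4.15, and on Bob1 knockout B and BL6 wild-type B it lay under the dimmest signal that was well above background there (-5.67 and -5.84). Its difference of 1.17 between the Bob1 knockout cultures was the third largest there, after Gbp6 at 2.55 and Ifi44 at 1.38. Ifi203 stayed between 3.32 and 3.88.

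Interferon-inducible GTPases, strongly induced by interferon gamma, act on the membranes of vacuoles that hold pathogens. Gbp6 had the widest range of the 48, 2.98 or 7.87-fold, with levels of -2.04 and -3.22, -1.92 and -4.47, -2.03 and -3.43, and -1.49 and -2.36. Every A culture was above every B culture, whatever the group. Gbp6 also had the largest difference in miR-146a knockout, 0.87, followed by Zbp1 at 0.64 and by Lgals3bp, a secreted glycoprotein, at -0.58. Gbp2 and Gbp3 behaved otherwise, as given with the Bob1 comparison.

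The 4 TRIM, PARP and E3 ligase genes and the 5 antigen processing genes had the smallest swings by role. The array medians of the former lay between -0.27 and 0.13, and those of the latter between -0.10 and 0.10. Psmb10, an immunoproteasome subunit, had levels of 6.03 and 6.09, 6.23 and 6.10, 6.07 and 6.17, and 6.14 and 6.20, a range of 0.20. It was followed by Trim21, an antibody receptor and E3 ligase, with a range of 0.29 (0.13 to 0.42), and by Psmb9, another immunoproteasome subunit, with 0.33 (4.73 to 5.06). Tap1, which carries peptides into the endoplasmic reticulum, correlated at 0.92 with the other 47 genes over a narrow range, from -0.49 to 0.07. Among the remaining genes, Cxcl10, a chemokine for T cells, had 0.53 and 0.07, -1.41 and -0.98, 0.22 and -1.21, and 0.43 and 0.63. It was low in both Bob1 knockout cultures and in BL6 wild-type B.

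The comparison of Bob1 knockout with Bob1 wild-type asks what the loss of this coactivator changes. Of the 48 genes, 4 were lower in the knockout at an adjusted p under 0.05 in limma and 0 were higher, so 8.33% were lower, against 3.28% of all 17447 features lower, 3.52% higher and 6.8% in either direction. The 4 genes were Gbp2 and Gbp3, guanylate-binding GTPases, Samd9l, an antiviral factor that restrains translation, and Ddx58. At an unadjusted p under 0.05, 18 genes were lower (37.5%, against 10.7% of features) and 0 higher. The estimates were below 0 for 43 of the 48, with a median of -0.64, against 0.12 over all features. In 33 genes (68.8%) both knockout arrays lay below both wild-type arrays, against 20.9% of features, and in 1 gene they lay above, against 41.1%. In a fit with the replicate letter, which is the sex of the animal, as a block, 10 genes were lower (20.8%, against 4.88% of features lower), namely these 4 with Ifi205, Igtp, Irgm2, Oas2, Oasl1 and Zbp1.

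Gbp3 had levels of 2.84 and 2.77 in Bob1 wild-type A and B, 1.74 and 1.72 in Bob1 knockout, 2.80 and 3.12 in BL6 wild-type and 2.99 and 2.81 in miR-146a knockout. Its change in the knockout was -1.08 ± 0.15 (SE), or 2.11-fold lower, with an adjusted p of 0.0124 in limma. Samd9l had -0.09 and -0.63, -1.85 and -1.97, -0.10 and -0.46, and -0.22 and -0.35. Samd9l changed by -1.55 ± 0.21, or 2.93-fold, with an adjusted p of 0.013 in limma. Gbp2 had 2.20 and 2.09, 1.13 and 0.15, 2.36 and 2.37, and 2.41 and 2.03, and changed by -1.51 ± 0.31, or 2.84-fold, with an adjusted p of 0.0424 in limma. Ddx58, with the levels above, changed by -0.84 ± 0.16, or 1.79-fold, with an adjusted p of 0.0342 in limma. The probes lie at chr3:142236072-142236131 (Gbp3), chr6:3323316-3323375 (Samd9l), chr3:142300719-142300778 (Gbp2) and chr4:40156918-40156977 (Ddx58) in build mm9. In these 4 genes both knockout arrays lay below the other 6, including the low BL6 wild-type B. That held for 14 of the 48 genes (29.2%, against 14.8% of features, while 0 lay above the other 6, against 27.2%), the other 10 being Stat2, Ifih1, Zbp1, Ifit2, Mx1, Oas2, Oasl2, Ifi204, Igtp and Irgm2. For the other 34 at least 1 of the other 6 arrays was as low as a knockout array, as for Ifit3, which had the largest estimate, -1.55 ± 0.60, with an adjusted p of 0.153.

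**Figure D4:**
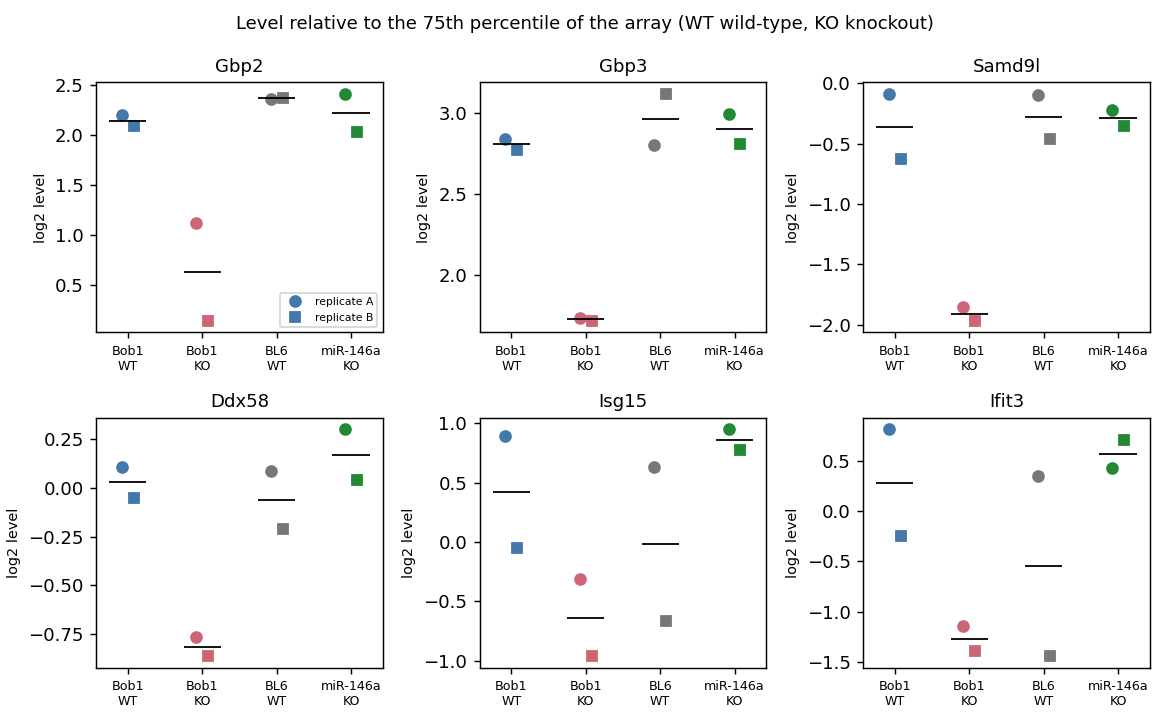
Levels of 6 genes on each array, relative to the array's 75th percentile on a log2 scale, with circles for replicate A, squares for replicate B and lines at the mean of 2. Gbp2, Gbp3, Samd9l and Ddx58 were low in both Bob1 knockout cultures only, while for Isg15 and Ifit3 BL6 wild-type B was as low.

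The slides split the Bob1 groups, as slide 1 carried both of the wild-type cultures and slide 2 both of the knockout cultures, and the slide effect is estimated from the other 4 arrays only. In that fit 38 of the 48 genes had lower estimates on slide 2, with a median of -0.21 and 0 passing. Over all features 7427 of 17447 had lower estimates on slide 2, with a median of 0.03 and 0 passing. With the slide as a block 0 of the 48 genes passed, against 0.602% of all features lower. At an unadjusted p under 0.05, 4 genes were lower (8.33%, against 5.03% of features), and the median change was -0.42. Gbp3 then had -1.33 with an adjusted p of 0.0524 in limma, Gbp2 -1.70 with 0.301, Samd9l -1.44 with 0.206 and Ddx58 -0.82 with 0.34. On slide 2 alone, the knockout cultures can be set against other genotypes. Bob1 knockout B was lower than BL6 wild-type B in 39 of 48 genes, with a median of -0.28, while 53.6% of all features were higher. Bob1 knockout A was higher than BL6 wild-type B in 30 of 48, near the 56.3% of all features, with a median of 0.11. Bob1 knockout A and B were lower than miR-146a knockout A, in 45 and in 48 genes, while 63.2% and 58.9% of all features were higher. Leaving out either array of a Bob1 group or of miR-146a knockout lowered the count passing, and the share of all features passing fell too. The group is then 1 array that is assumed to vary like the other groups, so only sizes are given. Without each Bob1 array in turn the change ran from -1.11 to -1.04 for Gbp3, from -1.82 to -1.28 for Samd9l, from -2.0 to -1.02 for Gbp2 and from -0.92 to -0.76 for Ddx58.

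The comparison of miR-146a knockout with BL6 wild-type asks what the loss of this microRNA changes. No gene of the 48 passed an adjusted p of 0.05 in limma, where 12 features (0.0688%) were higher and 6 (0.0344%) lower. At an unadjusted p under 0.05, Eif2ak2, Ifit2, Bst2 and Lgals3bp were higher and 0 were lower, or 8.33% higher, against 1.53% of features. The estimates were above 0 for 43 of the 48, with a median of 0.50, against -0.03 over all features, and in 29 genes (60.4%) both knockout arrays lay above both wild-type arrays, against 11.5% of features. Without BL6 wild-type B the median was 0.17, and 42 of the 48 estimates were above 0. The female cultures differed by a median of 0.22, with 44 genes higher in the knockout, against 50.7% of features. The male cultures differed by 0.70, with 42 higher, against 40.5%. On slide 1, miR-146a knockout B exceeded BL6 wild-type A by a median of 0.15, with 35 genes higher, against 51.1% of features. On slide 2, miR-146a knockout A exceeded BL6 wild-type B by 0.79, with 44 higher, against 42.4%.

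The wild-type groups, which are also the controls of the knockouts, were also set against each other. Bob1 wild-type against BL6 wild-type had 0 of 48 genes with an adjusted p under 0.05, where 0.0172% of features were higher and 0.0287% lower, and 0 with an unadjusted p under 0.05, against 0.808% higher and 1.36% lower. In either direction 0.0459% of features passed. In 1 gene both Bob1 wild-type arrays lay above both BL6 wild-type arrays (9.09% of features) and in 2 below (13.9%). The median difference was 0.21, with 36 of 48 above 0, and without BL6 wild-type B it was -0.08. The knockout effects themselves were compared by subtracting the miR-146a effect from the Bob1 effect. No gene of the 48 passed an adjusted p of 0.05 in limma (0.716% of features had a higher and 1.35% a lower Bob1 effect, 2.07% in all), 29 had an unadjusted p under 0.05 with a lower Bob1 effect (60.4%, against 8.4% of features), and the median was -1.28. Ifit3 had the largest difference, -2.68 ± 0.85 (SE), with an adjusted p of 0.162. With the replicate letter as a block, 6 genes had a lower Bob1 effect (12.5%, against 2.14% of features).

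Other genes of the pathway were taken from lists. Of the interferon genes, 13 had a probe, with 15 probes, 10 of which were well above background on at least 1 array, and 6 genes were tested. Ifnb1, the interferon that starts many type I responses, was not well above background on any array. Ifng, which encodes interferon gamma, was well above background on all 8, with -1.67 and -1.84, -2.63 and -2.55, -1.41 and -0.12, and -1.51 and -2.26. Its highest level was on BL6 wild-type B, where the interferon-stimulated genes were low. Ifna9, Ifna13, Ifnab and Ifnz were also measured on 8 arrays, over ranges from -3.42 to -2.96, -4.29 to -3.73, -4.02 to -3.49 and -2.45 to -1.81, and Ifna5 was dim, well above background on 3. Probes of the interferon alpha family can share sequence, so these levels may mix members. None of the 6 passed in any of the comparisons at an adjusted p of 0.05 in limma. At an unadjusted p under 0.05, 1 was higher in Bob1 knockout than in its wild-type, against 18.1% of all features. In miR-146a knockout 1 was lower than in BL6 wild-type, against 1.33%.

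Of 20 genes for interferon receptors and signal transduction, 3 were lower in Bob1 knockout and 0 higher. Of all features 3.28% were lower and 3.52% higher. Irf5 changed by -1.01, Irf8, a factor needed by dendritic cells and B cells, by -0.63, and Socs3, an inhibitor of cytokine signalling, by -0.92, with adjusted p of 0.00841, 0.0268 and 0.048 in limma. These 3 calls are from the fit without a slide term, and the slides split the Bob1 groups. None of the receptor genes passed, with estimates of -0.13 for Ifnar1, -0.37 for Ifnar2, -0.15 for Ifngr1 and -0.19 for Ifngr2. Jak1 had -0.30, Tyk2 -0.31 and Irf1 -0.28, with adjusted p of 0.188, 0.191 and 0.302. In the difference between A and B 18 of these 20 genes were above 0, against 8092 of 17447 features. Their median was 0.08, against -0.02. Of 20 genes for the induction of interferon, Traf3, an adaptor of that pathway, was lower in Bob1 knockout, by -0.70 (adjusted p = 0.0168 in limma). This call too is from the fit without a slide term. At an unadjusted p under 0.05, 10 of the 20 were lower, against 10.7% of all features.

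A list of 71 further interferon-stimulated genes was counted in the same way. In Bob1 knockout 9 were lower and 0 higher, against 3.28% of all features lower and 3.52% higher. The median was -0.42, against 0.12 over all features, and 60 were below 0, against 6563 of 17447 features. The 9 were Gbp4, Gbp7, Trim34a, Trim5, Slfn2, Ifi30, Epsti1, Shisa5 and Cd69. Slfn2, which keeps lymphocytes quiescent, had 3.28 and 2.65, 1.33 and 1.07, 3.14 and 2.70, and 3.12 and 2.92, a change of -1.77 ± 0.25 (SE; adjusted p = 0.0149 in limma). Ifi30, a lysosomal thiol reductase of MHC class II loading, changed by -1.0 (adjusted p = 0.0102), and Cd69, an early activation antigen, by -1.69 (adjusted p = 0.0128). With the slide as a block, the adjusted p of these 9 genes ran from 0.137 to 0.421. In A against B 65 of the 71 were above 0, against 8092 of 17447 features, and the median was 0.24, against -0.02. In miR-146a knockout 63 of 71 were above 0, against 7425 of 17447 features. The only gene of the list that passed was lower, as were 0.0344% of features: Ifi47, an immunity-related GTPase. Its levels were 3.56 and 3.30, 3.28 and 2.88, 3.58 and 3.32, and 1.55 and 1.18. Ifi47 was thus low on the miR-146a knockout arrays alone, 4.22-fold lower than in BL6 wild-type. Its log2 change was -2.08 ± 0.21 (adjusted p = 0.0406 in limma, and 0.135 with the slide as a block). Whether the lost microRNA or another difference between these mouse lines lies behind this was not tested.

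Markers of other cell types also differed between the A and B cultures. The direction was not the same for every list and group. Fewer cells of a type and less RNA per cell cannot be told apart in such cultures. The 12 markers of plasmacytoid dendritic cells, which make type I interferon, had median differences between A and B of 0.96 in Bob1 wild-type (12 of 12 higher in A), 0.79 in Bob1 knockout (9 of 12), 1.11 in BL6 wild-type (11 of 12) and 0.87 in miR-146a knockout (11 of 12). Their summed level, relative to the 75th percentile, was 186 and 120, 86.1 and 72.4, 160 and 120, and 160 and 139 in the same order of arrays. Ly6c2 and Spib made up 87.5% to 91.9% of that sum, and the other 10 markers summed to 16.7 and 10.7, 9.06 and 9.08, 16.3 and 9.75, and 14.7 and 13.8. Siglech, a defining marker, had -2.65 and -4.13, -3.58 and -5.07, -2.31 and -4.37, and -3.10 and -4.20. The 17 markers of T and NK cells had medians of 1.16, 0.81, 1.12 and 0.66, with 14, 15, 14 and 14 of 17 higher in A. Of these markers 1, Gzmb, passed in A against B (1.67, adjusted p = 0.0397 in limma), as did 0.0401% of all features. For the 48 interferon-stimulated genes the medians were 0.35, 0.36, 0.58 and 0.08 in the same order of groups. The 17 markers of monocytes and macrophages had medians of 0.17, -1.04, 0.09 and -0.72, and those of neutrophils, 15 genes, 0.84, -0.35, 0.53 and 0.11. The part of these cells in the results was not tested.

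**Figure D5:**
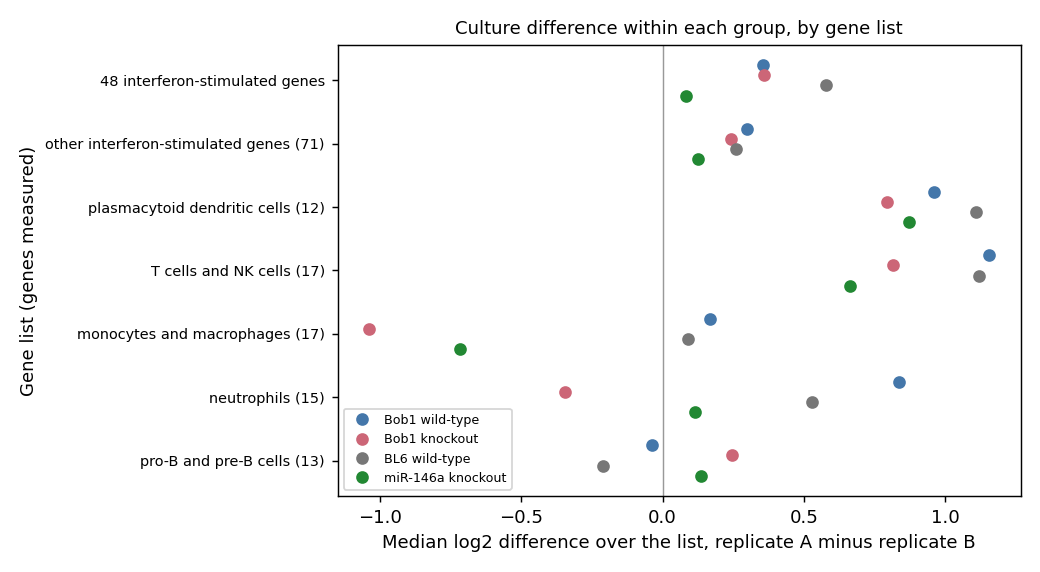
Median difference in log2 level between the female (A) and male (B) culture over each gene list, with 1 point for each group. The lists of plasmacytoid dendritic cells and of T and NK cells lie to the right of 0 in all 4 groups, and those of monocytes and macrophages on both sides.

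In Bob1 knockout against wild-type several lists of other cell types also had medians below 0. These were -0.89 for plasmacytoid dendritic cells (1 of 12 passed, Pld4), -1.0 for monocytes and macrophages (0 of 17 passed, 6 at an unadjusted p under 0.05), -0.92 for neutrophils (2 of 15), -1.10 for T and NK cells (1 of 17) and -2.35 for mature B cells (7 of 10 lower, 1 higher), whereas pro-B and pre-B markers had 0.16 (1 of 13 lower, 2 higher). Over all features the median was 0.12, 3.28% passed as lower and 3.52% as higher, and 10.7% were lower at an unadjusted p under 0.05. Of the 12 plasmacytoid dendritic cell markers, 11 were well above background on all 8 arrays. In miR-146a knockout against BL6 wild-type the monocyte and macrophage list had a median of 0.66, with 0 of 17 passing, against 0.103% of all features. The plasmacytoid dendritic cell list had a median of -0.11, and all features -0.03. What these cells contribute to the Bob1 and miR-146a comparisons was not tested.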

How the data were processed

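Each array file gave spot intensity values as the authors' scanner software deposited them: Agilent Feature Extraction 10.5.1.1, background-subtracted and detrended, with probe coordinates of build mm9, per the file headers. The deposited value table holds log2 values normalized in a way not given in the sources used here. limma is named in the submitters' processing notes. From the processed signal, log2 minus each array's 75th percentile was computed. Control spots and outlier spots were left out, a probe was kept where some group had it well above background on each of its arrays, and 66 probes without a usable spot on an array were left out. The brightest probe stood for a gene, and 27584 of 41174 probes took their gene name from RefSeq through their accession. limma 3.58.1 (R 4.3.3) fitted 4 group means over 8 arrays with 4 residual degrees of freedom, or group and letter with 3, with p-values adjusted over 17447 features. The fits were run on simulated data with independent noise for each gene. The simulation held no slide effect and no difference between A and B, so it does not bear on those. The labels call the cultures biological duplicates. With 2 arrays a group the number of arrays limits the precision.

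Genes described in full were those passing a test, the regulators, those with the 5 widest and 3 narrowest ranges, and those with the 3 largest differences between cultures in each group. Genes named beyond these were chosen after their values were seen. The members and lists were chosen with earlier results of these data known. Alternatives were background correction, scaling, probe filters, the mean of a gene's probes, the value table, slide and replicate blocks, and leaving out each array.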

Additional observations from a re-analysis of the deposited data

How the results depend on the processing

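Of 24 results recomputed under 18 alternatives, 252 values kept their direction and call or moved by less than the spread between replicates, 59 did not. For medians that spread was 0.305. Some values could not change, as the Bob1 median does not depend on the BL6 and miR-146a arrays or on the replicate block. The counts therefore do not measure how stable the results are. No called gene changed sign, but 2 of 150 medians did: A minus B in miR-146a knockout with normexp, and the wild-type groups without BL6 wild-type B. The latter went from 0.21 to -0.08, which is within that spread. In Bob1 knockout 4 genes were called as reported (3.28% of features lower). The count was 2 with the deposited value table (2.11%) and 2 with no filter on dim probes (1.04%). It was 0 with normexp background correction, where 0% of features were lower, and 0 with the slide as a block (0.602%). With 1 array left out it stayed the same or fell. The replicate letter is the sex in every group, and the labels name no shared animal, litter or day. Differences between A and B correlated at 0.0702 to 0.377 between groups, not above 0.1 in every pair, so the replicate block stayed an alternative, with 10 genes called in Bob1 knockout (4.88% of features lower) and 6 in the difference of the knockout effects (2.14%). That difference, 0 as reported (1.35% of features lower), gave 1 with the value table (0.389%) and 1 with quantile normalization (1.42%). Probes well above background on all arrays gave 1 (1.5%). Leaving out 1 array changed that count in some fits. The planned normexp fit was pulled by 2 to 6 spots far under their local background on 4 arrays. Without those spots, an alternative chosen after seeing the data, 10 genes were called in Bob1 knockout (4.91% of features lower), 6 in the difference (2.12% lower) and 5 in A against B (1.06% in either direction).

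The value table, whose normalization and centring are unknown (the median of every array is 9.59), gave medians of -0.26 for Bob1 knockout, 0.17 for A minus B in BL6 wild-type and -0.29 for the deviation of Bob1 knockout B. Normexp gave -0.45 for A minus B in miR-146a knockout, -0.39 for the deviation of Bob1 knockout B and 0.031 for that of miR-146a knockout A. With 1 array left out the median ranged from -0.87 to -0.50 in Bob1 knockout, from 0.17 to 0.78 in miR-146a knockout and from -0.08 to 0.45 between wild-type groups. Of the 18 alternatives, Gbp3 and Samd9l stayed below an adjusted p of 0.05 in 12 each, and Gbp2 and Ddx58 in 8 each, with negative estimates throughout. The cause was not tested where no cause is named. Of 13 genes with several probes, the probes had the same sign in 12 for Bob1 and in 11 for A minus B.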

Other observations

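Outside the list, the features most like the mean of the 48 genes over the 8 arrays were named after their values were seen. Rnf213, a large ubiquitin ligase, correlated at 0.99 and had levels of 2.90 and 2.61 in Bob1 wild-type A and B, 2.26 and 1.81 in Bob1 knockout, 2.78 and 2.18 in BL6 wild-type, and 2.99 and 2.90 in miR-146a knockout. Oas1f correlated at 0.99, Ly6f, Ly6a and Oas1b at 0.98, Parp12 at 0.98 and Isg20 at 0.97. Trim30a, whose older name is on the list, correlated at 0.94, with 2.46 and 2.09, 1.66 and 1.36, 2.23 and 1.99, and 2.44 and 2.30. Spi1, a transcription factor of myeloid and B cells, correlated at 0.94. Csf2 and Tie1 correlated at 0.96 and 0.95, but on 3 arrays each lay under the lowest signal that is well above background, so their likeness rests in part on values not well above background. The values share the same 8 arrays and their scaling, so the likeness is a description.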
